A study of Citrus unshiu with 2 samples.

Results

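Cs5g28670 and Cs5g28570 are the 2 genes that the deposited descriptions call B3 domain-containing transcription factor VRN1. They were picked by identifier out of 23159 gene models, and both are present with reads in both libraries. Their opposite changes in these same 2 libraries were known when they were picked, so their levels are given as a description, with no test. The material was mature stems from shoots of wild-type satsuma mandarin (Citrus unshiu), grown in root-limiting containers under a rain-proof tunnel. The groups are light drought, in which the soil dried to a moisture of around 15%, and control trees with normal water, both labelled day 75 and both wild type. The labels set aside 20 trees for each treatment and do not say how many trees a library holds. Each group has 1 RNA-seq library, so no value below has a replicate check.

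In Arabidopsis, VRN1 is a nuclear protein with the plant-specific B3 DNA-binding domain, and it is needed to keep the floral repressor FLC shut off after a long cold period (vernalization). In wheat and barley the name VRN1 belongs to an unrelated MADS-box gene, so the name alone does not say which protein is meant. In the files both citrus genes carry the Pfam domain called B3 DNA binding domain, as the Arabidopsis protein does. Citrus trees form flower buds after cool weather or a spell of water shortage, which is the setting of the present comparison of drought-treated and watered stems.

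The light drought library held 31760704 reads in genes and the control library 32856618. Levels are RPKM, that is reads scaled to exon length and to the total of reads in genes, as deposited by the authors. The number of reads behind each level was recovered from the RPKM and the gene length. Even read counts made up 66.7% of light drought genes and 67.0% of control genes with 1 to 20 reads, so counting intervals were computed on halved reads, as though a read pair gave 2 reads. These 95% intervals say nothing of how trees differ and cover counting error alone. Marker lists were matched only among the 2568 gene models with descriptions, a set the authors deposited as differential genes. Of the marker lists for the labelled tissue, the 16 secondary wall and xylem genes summed to RPKM 178 in light drought and 170 in control. Of those 16, 12 were kept, 4 with a log2 ratio above 0 and 8 below it, with a median of -0.41 and a range of -1.36 to 1.59. The 4 phloem genes summed to 7.70 in light drought and 6.77 in control, 3 above 0 and 1 below it.

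The level of Cs5g28670 was higher under light drought and that of Cs5g28570 was lower. Cs5g28670 stood at RPKM 3.81 in light drought stems (129 reads) against 1.37 in control stems (48 reads). Cs5g28570 stood at 3.64 in light drought stems (229 reads) against 8.23 in control stems (536 reads). The counting intervals were 2.94 to 4.87 in light drought and 0.879 to 2.04 in control for Cs5g28670, which do not overlap. For Cs5g28570 they were 3.00 to 4.37 in light drought and 7.27 to 9.27 in control, again without overlap. The members were picked for these differences, and how many of all genes lack overlap was not counted. Both genes lie far above a floor of 3 reads, which is RPKM 0.0887 in light drought and 0.0857 in control for Cs5g28670, and 0.0476 and 0.0460 for Cs5g28570.

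**Figure D1:**
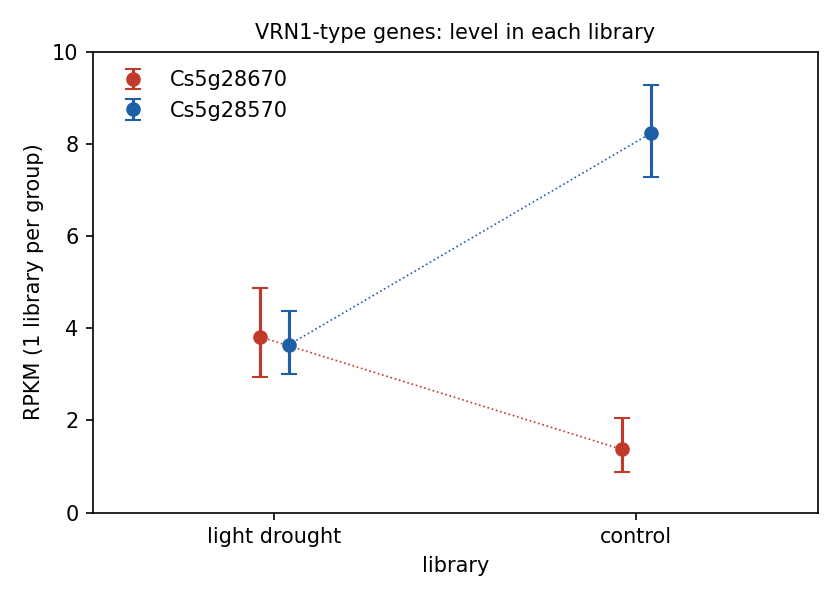
Level of each VRN1-type gene in RPKM (vertical axis) in the light drought and control libraries, with exact 95% Poisson intervals on halved reads as bars and dotted lines joining the same gene. The genes stand side by side in light drought, at 3.81 and 3.64, and apart in control, at 1.37 and 8.23.

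On the scale log2((light drought + 0.5)/(control + 0.5)), the value for Cs5g28670 was 1.20 and that for Cs5g28570 was -1.08. Without the added 0.5, which understates changes of low genes, the log2 ratios were 1.48 (counting interval 0.78 to 2.22) and -1.18 (-1.51 to -0.86). As plain folds, Cs5g28670 was 2.78-fold higher in light drought than in control, and Cs5g28570 in light drought was at 0.442 of its control level. With 1 RPKM added in place of 0.5, the value for Cs5g28570 was -0.99, just under 2-fold. Among the 15654 genes with at least 1 RPKM in either library, called kept genes here, 138 (0.882%) were at least 2-fold higher and 332 (2.12%) at least 2-fold lower on the first scale. Cs5g28670 ranked 72 from the top of the kept genes by this ratio, and Cs5g28570 ranked 268 from the bottom. The members were chosen for these ratios, so nothing is read from the ranks.

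The authors' deposited table lists both genes as changed, with log2 fold changes of 1.47 for Cs5g28670 and -1.18 for Cs5g28570. The false discovery rates in the authors' deposited table are 0.000127 for Cs5g28670 and 2.93e-05 for Cs5g28570. By p-value they rank 382 and 315 among the 820 gene models with a p-value in the authors' deposited table. Those 820, named calls here whatever their false discovery rate, are 3.54% of all gene models. With 1 library per group, such p-values and rates compare the reads of 2 libraries, not the conditions.

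The 4 levels of the pair order as Cs5g28570 in control, Cs5g28670 in light drought, Cs5g28570 in light drought and Cs5g28670 in control, from high to low. The middle pair, both from light drought, do not differ beyond counting error. In that library the log2 ratio of Cs5g28670 over Cs5g28570 per length was 0.069, with a counting interval of -0.39 to 0.52. In the control library the same ratio was -2.58 (interval -3.25 to -1.98), so there Cs5g28570 stood above Cs5g28670. Cs5g28670 thus made up 51.2% of the summed RPKM of the pair in light drought (interval 43.2% to 58.9%) and 14.3% in control (9.50% to 20.2%). The sum itself was 7.45 in light drought and 9.60 in control, a log2 ratio of -0.37. In size this is smaller than the log2 ratio of either gene.

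Set among all gene models, the levels of the pair were close in light drought and far apart in control. In light drought, 51.6% of all gene models had a lower RPKM than Cs5g28670 and 50.9% a lower one than Cs5g28570. In control the shares were 37.1% for Cs5g28670 and 65.0% for Cs5g28570. Among kept genes, the level of Cs5g28670 exceeded 28.3% of them in light drought and 6.89% in control. For Cs5g28570 these shares were 27.4% in light drought and 48.2% in control.

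**Figure D2:**
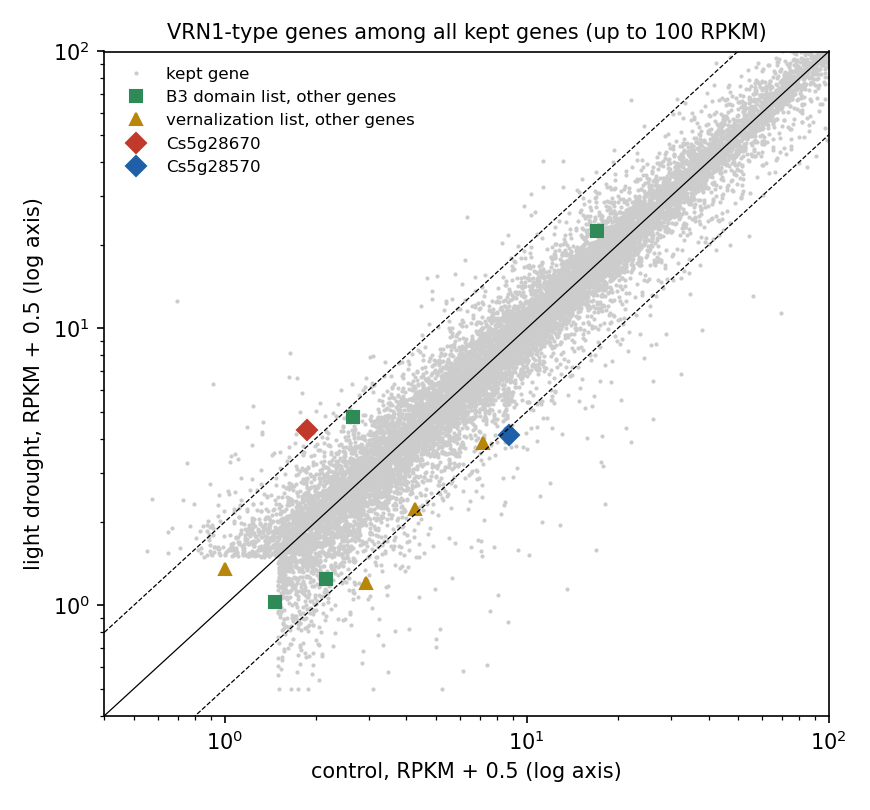
Light drought level (vertical) against control level (horizontal), both as RPKM + 0.5 on log axes, for kept genes up to 100 RPKM in grey. Diamonds are the VRN1-type genes, squares the other genes of the B3 domain list and triangles the other genes of the vernalization list. The solid line marks equal levels and the dashed lines 2-fold, with Cs5g28670 above the upper one and Cs5g28570 just below the lower one.

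The gene models differ in size and exon number. Cs5g28670 (symbol LOC18034633) lies at 30935738 to 30936888 on the minus strand of chromosome 5, in coordinates of the authors' files. Their genome build is not given in the sources used. It has 2 exons of 799 and 266 bases with an intron of 86 bases between them, and exons fill 92.5% of its span. The protein record that the files pair with it is described as partial. Cs5g28570 (symbol LOC18034239) lies at 30829358 to 30833722, also on the minus strand. It has 6 exons, from the 5′ end 381, 162, 162, 568, 170 and 540 bases long, and exons fill 45.4% of its span. Of its introns, 2 are long, at 1145 and 939 bases, and the other 3 measure 94 to 106 bases.

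**Figure D3:**
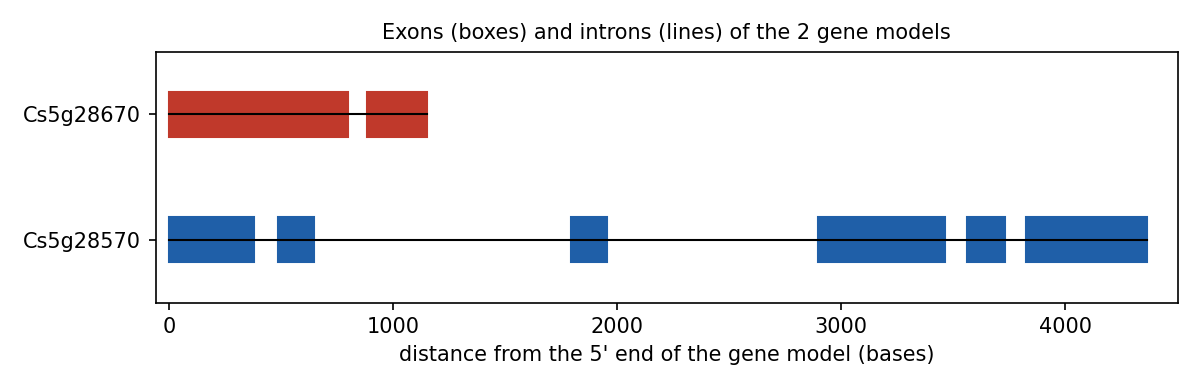
Exons (boxes) and introns (lines) of Cs5g28670 and Cs5g28570, drawn to scale by distance in bases from the 5′ end of each gene model. The upper model spans 1151 bases with 2 exons, the lower one 4365 bases with 6 exons.

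The summed exon length is 1065 bases for Cs5g28670 and 1983 bases for Cs5g28570, and both are multiples of 3. So are 48.6% of all gene models. The domain annotation is the same for both, namely the B3 DNA binding domain and the DNA-binding pseudobarrel superfamily, the protein fold to which B3 domains belong. Reads that match both genes, or another copy, could have been split or dropped in the authors' counting. The sources used here do not say how such reads were treated, so both levels carry that uncertainty.

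The 2 genes stand 102015 bases apart with 8 gene models between them. Of the 8, 2 reached 1 RPKM, and neither of these was past 2-fold. Cs5g28645 had 458 reads in light drought against 411 in control (log2 of RPKM 0.18), and Cs5g28650 had 70 reads in light drought against 60 in control (0.20). Neither has a description in the files, and their counting intervals, -0.07 to 0.48 and -0.47 to 1.03, include no difference. At least 2-fold apart were 3.00% of all kept genes and 2.67% of those on chromosome 5.

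The other 6 intervening models were under 1 RPKM in both libraries, where the added 0.5 holds a ratio near 0. Cs5g28620 stood at 0.348 in light drought (51 reads) against 0.969 in control (147 reads). Its log2 ratio was -0.79 with 0.5 added and -1.48 without (interval -2.19 to -0.81), and the authors' deposited table calls it lower. Cs5g28640 stood at 0.483 in light drought against 0.900 in control (54 and 104 reads). Cs5g28655 stood at 0.539 in light drought and 0.521 in control, with 10 reads in each. Cs5g28600, Cs5g28610 and Cs5g28630 had 1 to 6 reads per library, too few to show a direction.

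**Figure D4:**
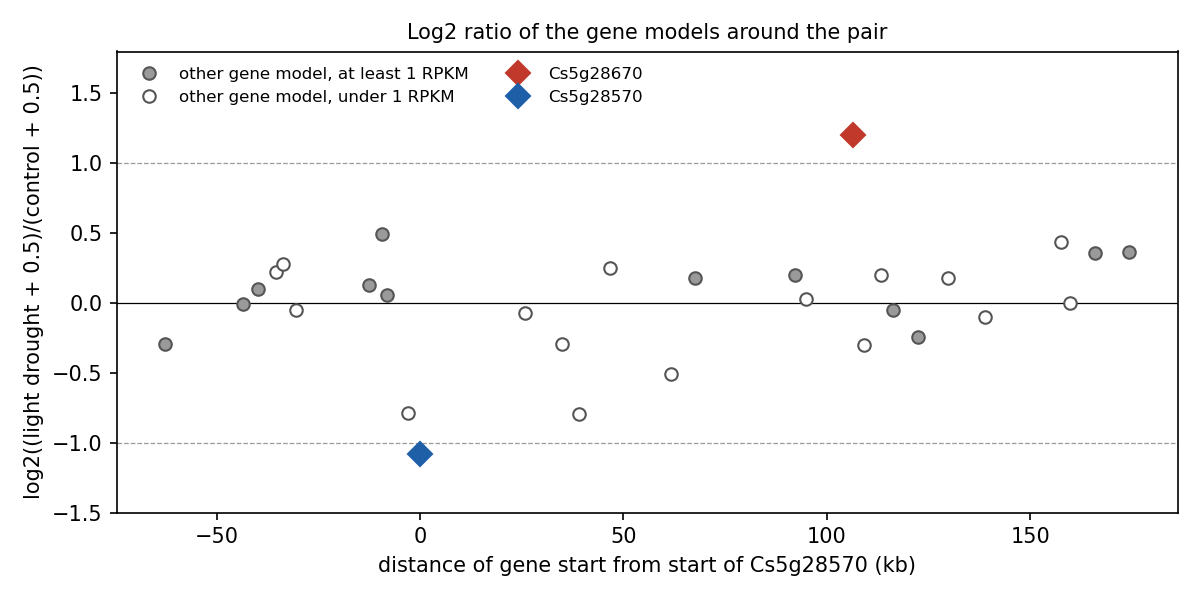
Log2 ratio of light drought over control with 0.5 added to both (vertical axis) by distance in kb of the lower coordinate of each gene model from that of Cs5g28570 (horizontal axis). Filled circles reached 1 RPKM in either library, open circles did not, and dashed lines mark 2-fold. The diamonds, Cs5g28670 at 1.20 and Cs5g28570 at -1.08, are the 2 models of the 30 drawn that lie outside the dashed lines.

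With the 10 gene models on each outer side, the window spans 239 kb and 30 models. Of the 20 flanking models, 10 reached 1 RPKM, and none of these was past 2-fold. Their log2 ratios ran from -0.30 to 0.49, with 6 above 0 and 4 below, and a median of 0.079 against 0.0024 over all kept genes. The largest was that of Cs5g28560, a gene with the domain of a small cytochrome b6f subunit of photosynthetic electron transport, at 10.4 in light drought against 7.26 in control. On the outer side of Cs5g28670 the next model, Cs5g28680, begins 1597 bases away and stood at 0.451 in light drought against 0.674 in control. Its interval of the plain log2 ratio, -1.82 to 0.60, leaves the direction unsettled at this depth.

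The nearest neighbour of Cs5g28570 was lower in light drought too, at a low level. Cs5g28566 ends 1742 bases from Cs5g28570 on the same strand and is annotated with the DNA-binding pseudobarrel superfamily but not with the B3 domain itself. It stood at RPKM 0.286 in light drought (11 reads) against 0.853 in control (34 reads). Its plain log2 ratio was -1.58 (interval -3.28 to -0.13), and the authors' deposited table gives -1.57 with a false discovery rate of 0.0341. In plain ratios, with no 0.5 added and at least 10 reads over both libraries, 1 of 5 intervening models and 2 of 19 flanking models were 2-fold apart, against 8.98% of all genes with that many reads. The 3 were Cs5g28620, Cs5g28566 and Cs5g28750, the last with 14 reads in light drought against 6 in control.

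Other genes with a B3 domain in the files were few, because the descriptions used here cover 2568 gene models, of which 820 have a call in the authors' deposited table. The authors deposited those models as differential genes, so this list and the vernalization list are no even sample of their families. Text matches gave 6 genes, of which 5 were kept, 1 higher and 1 lower by at least 2-fold, and these 2 are the VRN1-type genes themselves. Among kept genes with descriptions, 20.9% were at least 2-fold apart, 5.99% higher and 14.9% lower, against 3.00% apart among all kept genes. The median log2 ratio of the 5 was 0.40, against -0.23 for kept genes with descriptions and 0.0024 for all kept genes.

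None of the other 3 kept B3 genes passed 2-fold on the scale with 0.5 added, though Cs5g01200 did in plain ratio. RAV2 (Cs6g18930), of a family of repressors that join an AP2 and a B3 domain, stood at 4.29 in light drought against 2.16 in control, a log2 ratio of 0.85. AUXIN RESPONSE FACTOR 1 (Cs3g01570), of the factors that bind auxin-regulated promoters, stood at 22.0 in light drought against 16.6 in control, a log2 ratio of 0.40. A gene described as B3 domain-containing protein Os03g0120900 (Cs5g01200), named after a rice locus, stood at 0.748 in light drought against 1.66 in control, a log2 ratio of -0.79 with 0.5 added. The authors' deposited table calls Cs5g01200 lower, with a log2 fold change of -1.15 and a false discovery rate of 0.00540. Another auxin response factor (Cs5g32400) stayed under 1 RPKM, at 0.527 in light drought against 0.968 in control.

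Of the vernalization list, 6 genes matched and 5 were kept, with 1 higher and 2 lower by at least 2-fold with 0.5 added. Among kept genes with descriptions, 5.99% were higher and 14.9% lower by that rule. Cs5g28670 was the 1 higher gene, and Cs5g28570 was among the 2 lower ones, and both were chosen for these ratios. Without them 3 kept genes are left, 0 higher and 1 lower by that rule. The other lower gene was UPSTREAM OF FLC (Cs1g01250), named for its position beside FLC in Arabidopsis. It stood at RPKM 0.705 in light drought against 2.43 in control, a log2 ratio of -1.28, and was kept through control alone. A second gene with the Upstream of FLC domain annotation (Cs8g17930) stood at 1.73 in light drought against 3.77 in control, a log2 ratio of -0.94 with 0.5 added. The authors' deposited table calls Cs8g17930 lower at -1.12, and in plain ratio it is past 2-fold too. The FT homologue HEADING DATE 3A (Cs6g05520) was at 3.35 in light drought against 6.69 in control, a log2 ratio of -0.90. Its Arabidopsis relative is the protein that travels from leaf to bud to start flowering. The gene model of Cs6g05520 holds only 282 exon bases in 3 exons, and whether it is complete was not tested. Cs6g05520 had 30 reads in light drought against 62 in control, and the authors' deposited table gives no p-value for it. Its interval of the plain log2 ratio, -1.99 to -0.07, comes close to no difference. A truncated FRIGIDA-like gene (Cs3g12120), related to the activator of FLC in Arabidopsis, stayed under 1 RPKM, at 0.852 in light drought against 0.502 in control. Its interval of the plain log2 ratio, -0.32 to 1.90, includes no difference. The median of the 5 kept genes was -0.94, against -0.23 for kept genes with descriptions. FLC itself was not matched in the descriptions, so no value for it stands beside the VRN1-type genes.

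The ratios of the VRN1 pair lay further apart than those of most neighbouring genes of the same description. Over kept genes, 79 pairs share a RefSeq description and lie within 20 gene models of each other on the same chromosome or unplaced sequence. Descriptions exist only for the models deposited as differential genes, so pairs with a gene outside that set are not counted. The difference between the 2 log2 ratios of such a pair had a median of 0.42, and that of the VRN1 pair was 2.28, the second largest. The 1 larger difference, 2.57, belongs to a pair described as hypothetical protein, which is no shared name. Without hypothetical and uncharacterized descriptions, 56 pairs are left and the VRN1 pair is first, ahead of a pair of acid phosphatase 1 genes at 1.78. Ratios of opposite sign occurred in 26 of the 79 pairs, and in 1 of them, the VRN1 pair, both genes were also past 2-fold. The VRN1 pair was chosen for this difference and pairs share genes and libraries, so its rank is a description.

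**Figure D5:**
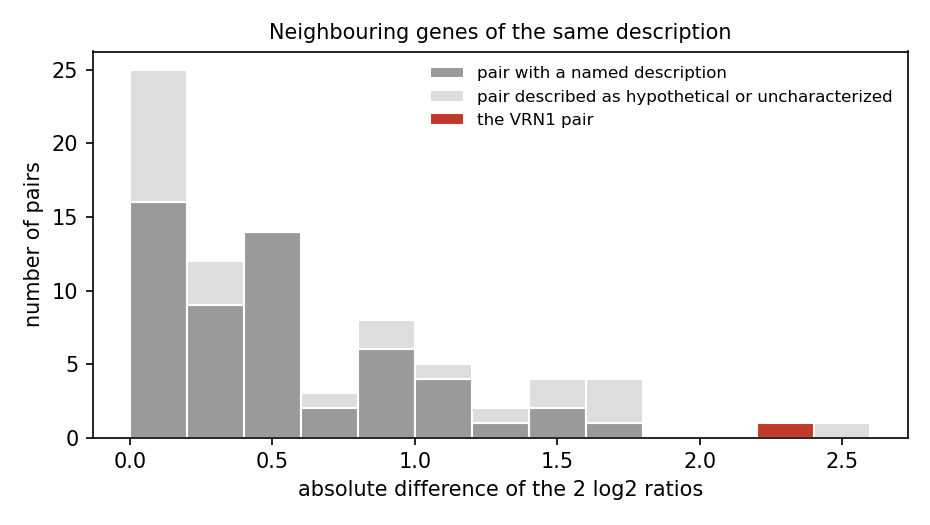
Number of neighbouring gene pairs of the same description (vertical axis) by the absolute difference between the log2 ratios of the 2 genes (horizontal axis). Dark bars are pairs with a named description, light bars pairs described as hypothetical or uncharacterized, and the red bar is the VRN1 pair at 2.28.

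Genes with a description that lie nearest to each member in both libraries at once were found by the Euclidean distance of log2(RPKM + 0.5), over 2 libraries and 1371 genes. For Cs5g28670 they were Cs8g19420 (uncharacterized, distance 0.13), the lysosomal Pro-X carboxypeptidase orange1.1t04346 (0.20) and a pentatricopeptide repeat gene, Cs3g13840 (0.20). Their levels ran from 3.26 to 3.67 in light drought and from 1.21 to 1.32 in control. For Cs5g28570 they were a putative phytosulfokine 6 precursor, Cs3g07780 (0.051), Cs6g17950 (uncharacterized, 0.093) and an allene oxide cyclase of jasmonate synthesis, Cs6g18910 (0.15). Their levels ran from 3.24 to 3.57 in light drought and from 7.96 to 8.39 in control.

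The summed levels of the other marker lists, of the shoot and of the root, also differed between the 2 libraries. These lists match only genes with descriptions, from the set the authors deposited as differential genes, so unchanged genes may be missing from them. All 32 genes matched to chlorophyll-binding proteins and photosystems had log2 ratios above 0, and they summed to RPKM 2270 in light drought and 1105 in control. Their median was 0.60, against -0.23 for kept genes with descriptions. Of the 32, 2 were at least 2-fold higher, against 5.99% of kept genes with descriptions. The 7 surface lipid genes, 1 above 0 and 6 below it, summed to 131 in light drought and 257 in control. The 4 genes matched to root terms split 2 above and 2 below 0 (median 0.16) and summed to 19.3 in light drought and 10.8 in control. The 4 genes matched to flower organ terms also split 2 and 2, from -1.66 to 0.72. They summed to 4.99 in light drought and 7.06 in control. DEFICIENS (Cs1g24860, -1.66) and AGL6 (orange1.1t00275, -1.42) were at least 2-fold lower, as were 14.9% of kept genes with descriptions. Both were kept through control alone, where they stood at 2.96 and 1.00, against 0.593 and 0.0628 in light drought. The filter thus favours such ratios. AGL6 had 2 reads in light drought against 33 in control. AGL28 (Cs2g02950, 0.72) and AGL15 (Cs7g02340, 0.25) were above 0 and not past 2-fold. Both were matched only by the words agamous-like in their descriptions, and the split of 2 and 2 rests on that match. AGL28 was kept through light drought alone, at 1.12 against 0.486 in control. AGL15 alone stood at 3.21 in light drought and 2.61 in control. No gene of these lists was at 0 in either library. The part of these differences in the values of the VRN1-type genes was not tested. In whole stems, fewer cells of a type and less RNA per cell cannot be told apart.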

How the data were processed

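The authors deposited RPKM for 23159 gene models in both libraries, and the file headers give exon positions and lengths. Per the submitters' processing notes, reads were handled with Trimmomatic 0.36. The sources used here do not give the aligner, counting tool, genome build or use of strand. RPKM times length gave whole reads within 0.01 for 100% of values, and these reads served for intervals only. For part of the genes the authors deposited a log2 fold change, with its p-value and false discovery rate, used as they stand. Kept genes had at least 1 RPKM in either library, 0.5 was added before log2, and 2-fold was the threshold. Ratio intervals are exact conditional (Clopper-Pearson) and level intervals exact Poisson, at 95%. No p-value was computed, since a group is 1 library. Members and lists were chosen with earlier results of these data known. The text names both members, all models between them, flanking or listed genes past 2-fold, the other genes of the vernalization list, up to 6 other B3 genes and the 3 nearest genes per member. Named outside that rule, after their values were seen, were Cs5g28560, Cs5g28566, Cs5g28680 and Cs5g28750, the acid phosphatase pair, the 4 flower organ genes and the models named for their exon lengths. A reference table of locus tags matched 0 identifiers and 0 symbols. The counting steps were tested on simulated whole reads, with changes larger than the 2-fold threshold. The intervals on halved reads were not tested in that way. Scripts ran under Python 3.11.15 with pandas 2.3.3, scipy 1.17.1, numpy 2.4.6 and, for plots, matplotlib 3.10.9.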

Additional observations from a re-analysis of the deposited data

How the results depend on the processing

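No paired analysis was possible because there is a single library in each group, which also bars leaving one out. Plain ratios with a read minimum, and pairs without generic descriptions, were chosen after seeing the data. In all 10 alternative ratios, counted over both members, the move was less than the counting error. The alternatives were other pseudocounts, none, and other scalings. An amount added to both libraries cannot turn a direction around. The scalings shifted plain log2 ratios by only -0.0026 and 0.013. That the direction was kept was thus fixed beforehand and is no support for it. Values ran from 1.02 to 1.48 for Cs5g28670 and from -1.18 to -0.99 for Cs5g28570. Of the other results, a pseudocount of 1 left 1 of the B3 genes, Cs5g28670, and 292 of all kept genes at least 2-fold apart. A minimum of 5 RPKM left 1 B3 gene, 1 vernalization gene and 227 of all genes, from fewer genes, and no model between the pair. In both lists that gene is Cs5g28570, a member chosen for its ratio, as is Cs5g28670. That minimum also drops Cs5g28670 itself, at 3.81 in light drought and 1.37 in control. A pseudocount of 0.1 gave 3 B3 genes, with Cs5g01200 added, and 4 vernalization genes, with Cs8g17930 added, and the authors' deposited table calls both. A threshold of 1.5-fold gave 4 B3 genes, 5 vernalization genes and 1596 of all genes, by construction. Plain ratios of genes with at least 10 reads gave 1 intervening model, 2 flanking models, 3 B3 genes in place of 2, 4 vernalization genes in place of 3 and 1699 of all genes, where the added 0.5 no longer weighs on low genes. Without generic descriptions the VRN1 pair ranks 1 in place of 2. Pairs within 5 gene models could not include it, since 8 models lie between. The intervening models with 1 to 6 reads per library are too shallow for a direction.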

Other observations

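Several gene models around the VRN1-type pair resemble each other in exon lengths, which the files give without descriptions for these models. An exon of 328 bases is the middle of 3 exons in Cs5g28710, Cs5g28720, Cs5g28730, Cs5g28750 and Cs5g28780, all on the minus strand beyond Cs5g28670. Among the 30 models of the window, 5 (16.7%) have an exon of that length, against 93 (0.402%) of all 23159. The length was picked after it was seen. Cs5g28720 and Cs5g28750 share all 3 exon lengths, 470, 328 and 303 bases. Their levels were 0.315 and 0.400 in light drought, against 0.221 and 0.166 in control, from 6 to 14 reads each. The most abundant of the 5, Cs5g28780, stood at 18.4 in light drought against 14.2 in control (log2 0.36).

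The last 3 exons of Cs5g28570 measure 568, 170 and 540 bases. Those of Cs5g28563 measure 463, 152 and 530 bases, those of Cs5g28650 481, 176 and 405 bases, and those of Cs5g28680 610, 188 and 497 bases, all on the same strand. On the plus strand, the last 3 exons measure 966, 148 and 454 bases in Cs5g28600 and 996, 166 and 446 bases in Cs5g28640. The models were picked after their exon lengths were seen. The likeness was not tested against all gene models. Cs5g28563 stood at 14.6 in light drought and 14.1 in control, a log2 ratio of 0.058. These models have no domain annotation in the files, so no family name is given to them.

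Cs5g28620, the intervening model that the authors' deposited table calls lower, is described there as extra-large guanine nucleotide-binding protein 1. Its Pfam entries are leucine rich repeats and a protein kinase domain, which are the domains of receptor-like kinases. The description and the domains name different kinds of protein, so it is called by its identifier above.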
